A study of Rattus norvegicus with 2 samples.

Results

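The genes described here encode voltage-gated sodium and calcium channels and their auxiliary subunits, epithelial sodium channels, HCN channels and the TRPC, TRPM and TRPV channels of the hypothalamus. They were chosen by name, as every rat symbol that starts with Scn and a number, Scnn1, Cacna, Cacnb, Cacng, Hcn and a number, Trpc, Trpm or Trpv, together with Nalcn, among the array probes whose RefSeq accession matched a symbol. The rule found 64 genes of 16114 named genes and 39508 genes and unnamed transcripts on the array. They had 85 probes on 117 spots, and each gene was read from its probe with the highest mean signal. A further 8 symbols that the rule covers, among them Cacna1d, Nalcn, Scn7a, Scnn1d, Trpc2, Trpc5os and Trpm6, had no matched probe and were not analysed here. Trpc4ap came in through its name, although it encodes a protein that binds TRPC4 and not a channel.

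Both groups were spontaneously hypertensive rats (SHR), an inbred strain whose blood pressure rises with age, aged 9 weeks, with food and water freely available. The male group was 1 pool of hypothalamic RNA from 5 male rats (100 ng from each), and the female group was 1 pool from 5 female rats made the same way. The animals were killed with ether and decapitated, and 1 person cut out the tissue blocks. Each pool was labelled with Cy3 and measured on 1 Agilent array, so no test between the sexes was possible and all differences describe these 2 pools. The question of the series is which genes differ by sex in brain regions that regulate blood pressure. No strain with normal blood pressure was among the samples used here, and the sources used here name no oestrous stage for the females.

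Voltage-gated sodium channels carry the inward current of the action potential, and voltage-gated calcium channels turn depolarisation into calcium entry that drives transmitter and hormone release. HCN channels open on hyperpolarisation and carry the pacemaker current that sets firing rhythm. TRP channels are cation channels gated by temperature, osmotic force, lipids or receptor signalling, and members of the TRPV group are known for roles in osmosensing by vasopressin neurons.

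Signals below are processed spot intensities as a percentage of the 75th percentile of rat transcript spots on the same array, and differences are male minus female on the log2 scale, so that a positive value is higher in the male pool. The 75th percentile was 2203 intensity units for the male pool and 2254 for the female pool, and the local background had a median of 33 units on each. Both arrays lay on 1 slide, and the number of arrays limits the precision. The signal of 1 probe cannot be set against that of another, so levels were compared within a gene only. In pooled tissue, fewer cells of a type and less RNA per cell cannot be told apart.

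The regulatory sequences of the genes furthest apart between the pools are shown as context for the values that follow. They are the 3 genes lowest in the male pool and the 1 gene highest there among those with a promoter window in the RefSeq table (assembly GRCr8, made from a BN rat, so an SHR allele may differ), each from 250 bases before to 50 bases after the annotated start and written 5′ to 3′ along the gene. Capitals mark GC boxes (GGGCGG on either strand).
Trpc7 (chr17:7714651-7714950, plus strand): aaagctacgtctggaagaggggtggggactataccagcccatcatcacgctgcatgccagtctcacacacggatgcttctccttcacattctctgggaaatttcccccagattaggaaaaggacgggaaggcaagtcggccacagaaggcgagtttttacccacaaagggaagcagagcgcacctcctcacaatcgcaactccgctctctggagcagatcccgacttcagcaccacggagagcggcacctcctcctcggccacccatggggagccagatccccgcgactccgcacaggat
Trpc4 (chr2:140501046-140501345, plus strand): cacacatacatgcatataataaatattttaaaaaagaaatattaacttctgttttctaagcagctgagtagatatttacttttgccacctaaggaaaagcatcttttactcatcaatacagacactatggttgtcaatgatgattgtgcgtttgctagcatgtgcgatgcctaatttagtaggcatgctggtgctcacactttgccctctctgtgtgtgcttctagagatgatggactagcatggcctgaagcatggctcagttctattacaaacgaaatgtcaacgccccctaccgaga
Scn9a (chr3:71701328-71701627, minus strand): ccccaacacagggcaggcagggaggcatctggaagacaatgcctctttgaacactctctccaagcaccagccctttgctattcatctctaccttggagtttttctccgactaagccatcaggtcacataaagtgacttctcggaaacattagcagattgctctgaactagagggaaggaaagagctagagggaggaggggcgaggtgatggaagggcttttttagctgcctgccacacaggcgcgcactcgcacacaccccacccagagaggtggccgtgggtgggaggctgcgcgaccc
Trpm4 (chr1:104948187-104948486, minus strand): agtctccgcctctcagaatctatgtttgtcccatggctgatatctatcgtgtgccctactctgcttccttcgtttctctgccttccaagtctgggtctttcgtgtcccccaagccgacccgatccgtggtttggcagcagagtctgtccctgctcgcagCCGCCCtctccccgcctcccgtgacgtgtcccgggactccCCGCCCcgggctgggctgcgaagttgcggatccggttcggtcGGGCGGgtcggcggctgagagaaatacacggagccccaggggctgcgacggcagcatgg
The Trpm4 window held 3 GC boxes, 26 CpG dinucleotides and 64.0% G and C. No GC box lay in the windows of Trpc7, Trpc4 and Scn9a, which held 16, 5 and 9 CpG dinucleotides and 58.0%, 39.7% and 56.0% G and C. Over all channel genes, 46 of 64 had a window, with 50 windows in all. GC boxes were found in 22 of these 50 windows (44.0%), against 33.1% of all 33469 windows in the table, and the motif TATAAA, on either strand, in 3 (6.0%), against 14.2%. The palindromic oestrogen response element GGTCANNNTGACC was in none of the 50 windows and in 9 of all windows (0.0269%). Windows of measured genes had a median difference of -0.047 with a GC box (17 windows) and -0.041 without (20 windows). These matches describe letters in a window only.

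Of the 64 channel genes, 49 were well above background on both arrays and the other 15 on neither. No channel gene was well above background in 1 pool alone on its brightest probe. The 49 were close between the pools. None was 2-fold apart, against 2.93% of named genes and 4.20% of all genes and transcripts measured on either array. None was 1.5-fold apart, against 2.89% of named genes measured on both. Differences of at least 1.2-fold were seen for 4, which is 8.16% of the 49, against 11.2% of named genes measured on both arrays. These 4 included the cation channel gene Trpc7, lower in the male pool at a log2 difference of -0.48. The calcium channel gamma family gene Cacng4, at -0.43, and Trpc4, at -0.29, were lower as well, and Trpm4, at 0.34, was higher. At these thresholds the channel genes were apart no more often than named genes in general.

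**Figure D1:**
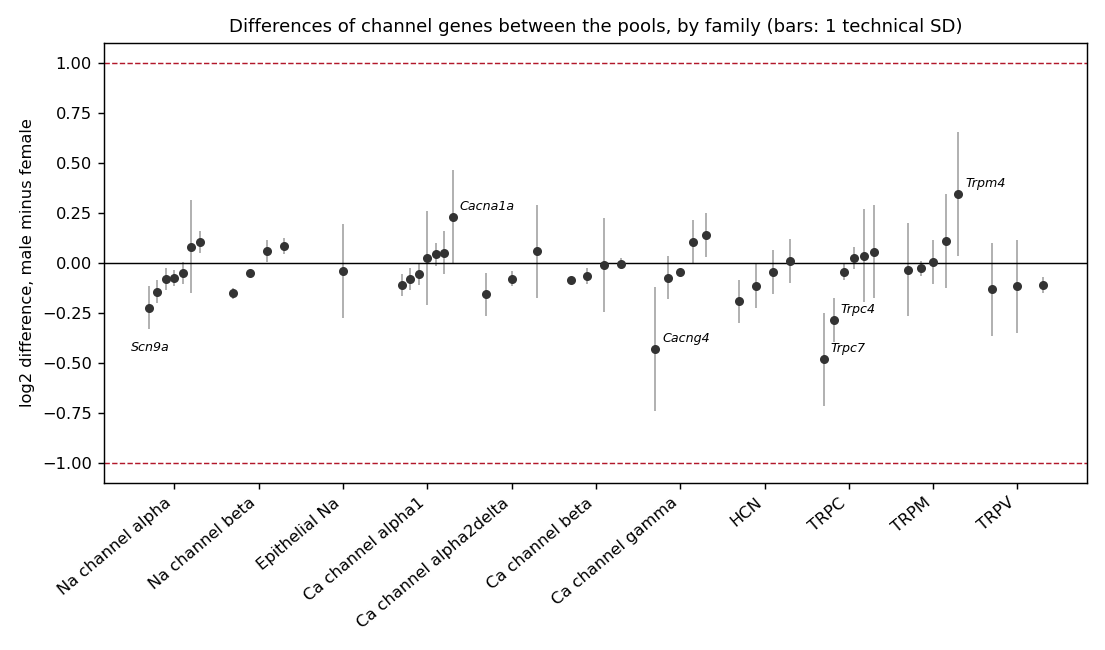
Log2 differences, male minus female, of the 49 channel genes well above background on both arrays, grouped by family, 1 point per gene. Bars are 1 technical SD from repeat spots, divided by the square root of a probe's spot number. Dashed lines mark 2-fold, and all points lie between -0.48 (Trpc7) and 0.34 (Trpm4).

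Of the 49, 31 were lower in the male pool (63.3%) and 18 were higher, against 57.2% lower and 42.8% higher among all named genes on both arrays. The median difference was -0.047 over the channel genes and -0.021 over named genes. Their middle range ran from -0.11 to 0.04 (quartiles), against -0.095 to 0.061 for named genes. Median centring in place of the 75th percentile moved the median to -0.077 for channel genes, with 35 of 49 lower (71.4%). It moved the median to -0.052 for all named genes measured on at least 1 array, with 66.55% lower. The 78 potassium channel genes (symbols starting with Kcn) measured on both arrays had a median of -0.023 with 61.5% lower, and 2-fold differences were seen for 3 of the 80 measured on either array (3.75%).

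The error that can be read from these data is that between repeat spots of a probe. The SD of a male minus female difference over repeat spots was 0.038 for probes above the 75th percentile, 0.056 at log2 signals of -2 to 0 relative to it, 0.11 at -4 to -2, 0.23 at -6 to -4 and 0.31 below -6. It is called technical SD here and covers neither animals nor whole arrays. For a probe on several spots it was divided by the square root of their number, which gave 0.012 for bright probes on 10 spots. By it, 12 of the 49 channel genes (24.5%) were over 2 technical SD apart, against 24.5% of named genes, so the share was at the background. Of these 12, 11 were lower in the male pool (Scn1a, Scn9a, Scn2b, Scn3b, Cacna1b, Cacna2d1, Cacnb1, Cacng2, Trpc4, Trpc7 and Trpv2) and Scn4b was higher. Of the 2954 named genes over that limit, 1743 were lower in the male pool and 1211 higher. Scn2b, Cacng2, Scn4b and Trpv2, on 2 or 10 spots, passed this limit only after the division by spot number. When the median difference of the 100 nearest spots was subtracted (local centring), Scn1a at -0.08 and Cacna2d1 at -0.03 were no longer over 2 technical SD. Scn2a, lower in males, and Scn8a, higher in males at 0.13, then came over that limit. The spread was also taken within each array, which includes spot position effects common to both arrays, and divided in the same way. By that SD, 5 of 49 (10.2%) were over 2 SD, against 12.7% of named genes. These were Scn2b, Scn3b, Cacnb1, Cacng2 and Trpc4.

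**Figure D2:**
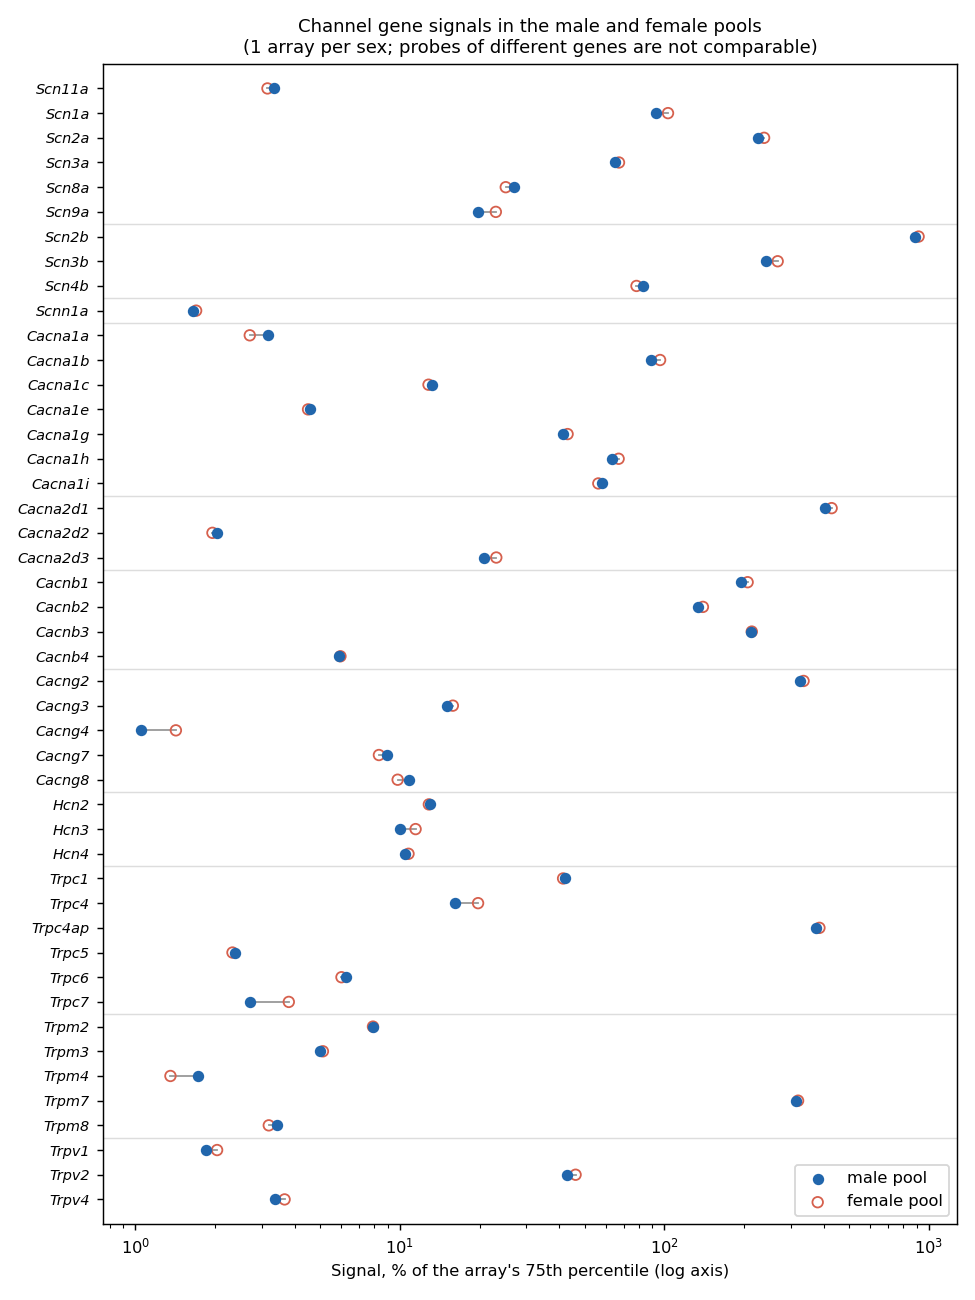
Signals of 46 of the 49 channel genes in the male pool (filled) and the female pool (open), as a percentage of the array's 75th percentile on a log axis, 1 row per gene, families separated by lines. The symbols of a gene overlap or nearly overlap in most rows, and the widest gaps are those of Trpc7, Cacng4 and Trpm4, all of which had signals under 4% of the 75th percentile.

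Among the pore-forming sodium channel subunits, 5 of the 7 measured genes were lower in the male pool and their median difference was -0.076, and none was 1.2-fold apart. Scn1a, which encodes Nav1.1, a channel prominent in inhibitory neurons, gave a signal of 93.3% in the male pool, against 103% in the female pool, a difference of -0.14. Subtracting the median of its 100 nearest spots on the slide (-0.06) left -0.08. Scn2a (Nav1.2) gave 226% in the male pool, against 238% in the female pool, at -0.08. Scn3a (Nav1.3), known for high expression in the developing brain, gave 64.9% in males and 67.3% in females, at -0.05. It read -0.14 with normexp, a background model that here adds an offset to every spot, under either scaling. Scn2a and Scn3a each had a second probe at -0.09. These 3 genes stayed below 0 under every alternative processing tried.

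Scn9a (Nav1.7), which amplifies small depolarisations and is best known from pain neurons, was the sodium channel gene furthest apart, with 19.7% in the male pool, against 23.0% in the female pool. Its difference of -0.23 was 2.07 times its technical SD. Scn8a (Nav1.6), the main channel of the axon initial segment and nodes, went the other way, with 27.0% in the male pool, against 25.1% in the female pool, at 0.10. The second probe of Scn8a was at 0.0044, and its first read 0.03 with normexp and quantile normalization.

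Scn11a (Nav1.9), a sensory neuron channel, gave 3.34% in males and 3.16% in females, at 0.08, below its technical SD of 0.23. The skeletal muscle channel gene Scn4a and the sensory neuron channel gene Scn10a were not well above background in either pool. Genes of this family are close in sequence, and probe sequences were not used here, so cross-hybridisation between them was not tested.

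Position on the chromosome was not used by the rule. In the gene table, Scn3a, Scn2a, Scn1a, Scn9a and Scn7a follow each other on chromosome 3 with 4 other protein-coding genes among them. The 4 with a probe were all lower in males, at a median of -0.11 and a range from -0.23 to -0.05. Of the 12 neuron marker genes in the list described below, 10 were lower as well, with a median of -0.056. Scn8a, on chromosome 7, lies outside this cluster.

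The beta subunits, which modulate gating and act in cell adhesion, were split, 2 reading higher in males and 2 lower. Scn3b gave 241% in the male pool, against 268% in the female pool, at -0.15, on 2 spots that read -0.22 and -0.09. Scn4b gave 83.0% in males and 78.4% in females, at 0.08, on 2 spots that read 0.06 and 0.10. Each pair of spots fell on the same side of 0.

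Scn2b was measured on 10 spots, all lower in the male pool, with a mean of -0.05 ± 0.02 (SD over 10 spots) and signals of 882% in males and 913% in females. Its second probe, a dim one, was at 0.15, so the mean over both probes was 0.05. Of the epithelial sodium channel subunits, which carry amiloride-sensitive sodium entry, Scnn1a gave 1.65% in males and 1.70% in females, at -0.04. Scnn1b and Scnn1g were not well above background in either pool.

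The pore-forming calcium channel subunits were spread about 0. Of 7 measured genes, 4 read higher in males and 3 lower, and their median of 0.02 changed sign with median centring, quantile normalization, both normexp settings and the mean over probes. Cacna1a, which encodes the P/Q-type channel of fast transmitter release, was the furthest apart, with 3.17% in the male pool, against 2.71% in the female pool, at 0.23. This difference did not exceed its technical SD of 0.23, and its second probe was at 0.11. Cacna1b, the N-type channel gene, gave 89.0% in males and 96.3% in females, at -0.11, but its second probe was at 0.01.

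Cacna1c, the L-type channel gene Cav1.2, gave 13.3% in the male pool, against 12.8% in the female pool, at 0.05. Its second probe was at 0.06. A dimmer Cacna1c probe was well above background only in the female pool, with 0.40% in males and 1.21% in females. Against the lowest signal above background on the male array, it was at least 1.76-fold lower in males, a bound that leaves the size of the difference unknown. Cacna1e, the R-type channel gene, gave 4.57% in males and 4.49% in females, at 0.02. Cacna1c and Cacna1e changed sign under at least 1 alternative.

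T-type channels open near the resting potential and support burst firing. Cacna1g gave 41.4% in the male pool, against 43.0% in the female pool, at -0.06. Cacna1h gave 63.4% in males and 67.1% in females, at -0.08. Cacna1i gave 57.8% in males and 56.2% in females, at 0.04, while its second probe was at -0.06. None of these 3 exceeded 2 technical SD. The skeletal muscle and retinal L-type genes Cacna1s and Cacna1f were not well above background in either pool.

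Auxiliary calcium channel subunits set the surface density and gating of the pore. Cacna2d1, the alpha2delta subunit bound by gabapentin, gave 405% in the male pool, against 428% in the female pool, at -0.08. Its second probe, designed to another transcript record, gave 115% in males and 133% in females, at -0.21. Both were lower in the male pool, and the 2 values lay further apart than their technical SD of 0.038. The median of the 100 nearest spots on the slide was -0.05 at the first of these, and subtracting it left a difference of -0.03.

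Cacna2d3 gave 20.7% in the male pool, against 23.1% in the female pool, at -0.16, which was 1.46 technical SD. Cacna2d2 gave 2.03% in males and 1.95% in females, at 0.06, and it changed sign with normexp and quantile normalization. Cacna2d4 was not well above background in either pool.

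All 4 beta subunit genes, whose products bring the pore to the membrane, read lower in the male pool by small amounts (median -0.04), except that 1 read higher with quantile normalization, with normexp and the 75th percentile and with local centring. Cacnb1 was measured on 10 spots, all lower in the male pool, with a mean of -0.09 ± 0.04 (SD over 10 spots) and signals of 194% in males and 206% in females. Its other probes were at -0.06 and -0.01. Cacnb2 gave 133% in the male pool, against 140% in the female pool, at -0.07. Its dim second probe was at -0.24, with a technical SD of 0.23, on a spot in a patch. Cacnb3 at -0.0056 and Cacnb4 at -0.01 were within their technical SD, and both changed sign under at least 1 alternative.

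The gamma family holds true calcium channel subunits and the TARPs, which carry AMPA receptors to synapses. Cacng2, the TARP stargazin, was measured on 10 spots, all lower in the male pool, with a mean of -0.05 ± 0.04 (SD over 10 spots) and signals of 325% in males and 336% in females. It read -0.03 with either normexp setting and -0.08 with median centring. Cacng3 gave 15.05% in the male pool, against 15.8% in the female pool, at -0.07. Cacng4 gave 1.05% in males and 1.42% in females, and its difference of -0.43 was 1.40 technical SD at this dim signal. With normexp and the 75th percentile it was at -0.11.

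Cacng8 and Cacng7, also TARP genes, lie beside each other on chromosome 1 and were both higher in the male pool. Cacng8 gave 10.8% in males and 9.80% in females, at 0.14. Cacng7 gave 8.95% in males and 8.33% in females, at 0.10. Neither exceeded 2 technical SD. Cacng1, Cacng5 and Cacng6 were not well above background in either pool.

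Of the 4 HCN genes, 3 were lower in the male pool (4 with median centring or quantile normalization), at a median of -0.082, and none exceeded 2 technical SD. Hcn2 gave 12.9% in the male pool and the same in the female pool, at 0.0094. Hcn3, known for expression in the hypothalamus, was the furthest apart, with 10.02% in males and 11.46% in females, at -0.19, but at -0.08 with normexp and the 75th percentile, where the median of the family was -0.04. Hcn4, the slow pacemaker subunit of the sinoatrial node, gave 10.4% in males and 10.8% in females, at -0.05.

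TRPC channels open downstream of phospholipase C and carry depolarising currents of neuropeptide and hormone receptors. Trpc7 gave 2.72% in the male pool, against 3.80% in the female pool, the largest difference of the 49 genes at -0.48, on 1 spot. That was 2.08 times its technical SD of 0.23. The 100 nearest spots had a median of 0.0026, so its surroundings on the slide read alike in both pools. With normexp and the 75th percentile it was at -0.24.

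Trpc4 gave 16.2% in the male pool, against 19.7% in the female pool, at -0.29, or 2.64 technical SD. Its second probe above background gave 10.6% in males and 12.1% in females, at -0.19, on a spot in a patch, meaning that at least 2 of its 18 nearest measured neighbours were 2-fold apart in 1 direction. Both probes were lower in the male pool. Trpc5, a channel gene linked to leptin-responsive neurons in mice, gave 2.38% in males and 2.33% in females, at 0.03, well within its technical SD of 0.23.

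The remaining members of this family read alike in both pools. Trpc1 had 42.1% in males and 41.4% in females, at 0.02, with its other probes at 0.04 and -0.03. Trpc6 had 6.24% in males and 6.01% in females, at 0.05. Trpc4ap had 373% in males and 385% in females, at -0.05.

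In the TRPM family, Trpm4, a calcium-activated monovalent cation channel gene, gave 1.72% in the male pool, against 1.36% in the female pool. Its difference of 0.34, the largest towards the male pool, was 1.11 technical SD, and was 0.15 with normexp and quantile normalization. Trpm2, an oxidant- and heat-sensitive channel gene linked to hypothalamic temperature sensing in mice, gave 7.93% in males and 7.91% in females, at 0.0035. Its other probe above background was at -0.20, and both spots lay in patches.

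Trpm3, a steroid- and heat-sensitive channel gene, gave 4.99% in the male pool, against 5.11% in the female pool, at -0.04. Trpm7, which joins a channel to a kinase and carries magnesium, gave 314% in males and 320% in females, at -0.03. A dim second Trpm7 probe was at -0.46, with a technical SD of 0.23, and this was the widest gap between probes of 1 gene. Trpm8, the cold and menthol receptor gene, gave 3.44% in males and 3.19% in females, at 0.11. Trpm1 and Trpm5 were not well above background in either pool.

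All 3 measured TRPV genes were lower in the male pool, within a range from -0.13 to -0.11, which widened with normexp and the 75th percentile to between -0.096 and -0.00039, with a median of -0.03. Trpv1, the capsaicin receptor gene, gave 1.85% in the male pool, against 2.04% in the female pool, at -0.13, with a technical SD of 0.23, and read -0.03 with that setting. Trpv4, an osmotically sensitive channel gene, gave 3.38% in males and 3.66% in females, at -0.12, and read -0.00039 with that setting. Trpv2, which is also stretch-sensitive, was measured on 2 spots that read -0.16 and -0.07, with signals of 42.7% in males and 46.1% in females. Its difference of -0.11 was 2.81 times its technical SD of 0.039 over 2 spots. Trpv3, Trpv5 and Trpv6 were not well above background in either pool.

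The 15 channel genes not well above background gave signals from 0.142% (Trpv6) to 0.815% (Trpm5) of the 75th percentile in the male pool and from 0.118% (Trpv6) to 0.671% (Scnn1b) in the female pool. Many of them are known from muscle, retina, sensory ganglia or epithelia. Such a probe gives only a bound, and no difference is given for it.

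Several genes were read by more than 1 probe, which the choice of the brightest probe left aside. Of 15 channel genes with at least 2 probes well above background on both arrays, 10 had the same sign on all probes (Cacna1a, Cacna1c, Cacna2d1, Cacnb1, Cacnb2, Scn2a, Scn3a, Scn8a, Trpc4 and Trpm7). The other 5 (Cacna1b, Cacna1i, Scn2b, Trpc1 and Trpm2) had probes on either side of 0. The median distance between the highest and lowest probe of a gene was 0.10 and the widest was 0.43. That distance was as large as most differences between the pools, and no probe of a channel gene above background on both arrays was 2-fold apart.

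**Figure D3:**
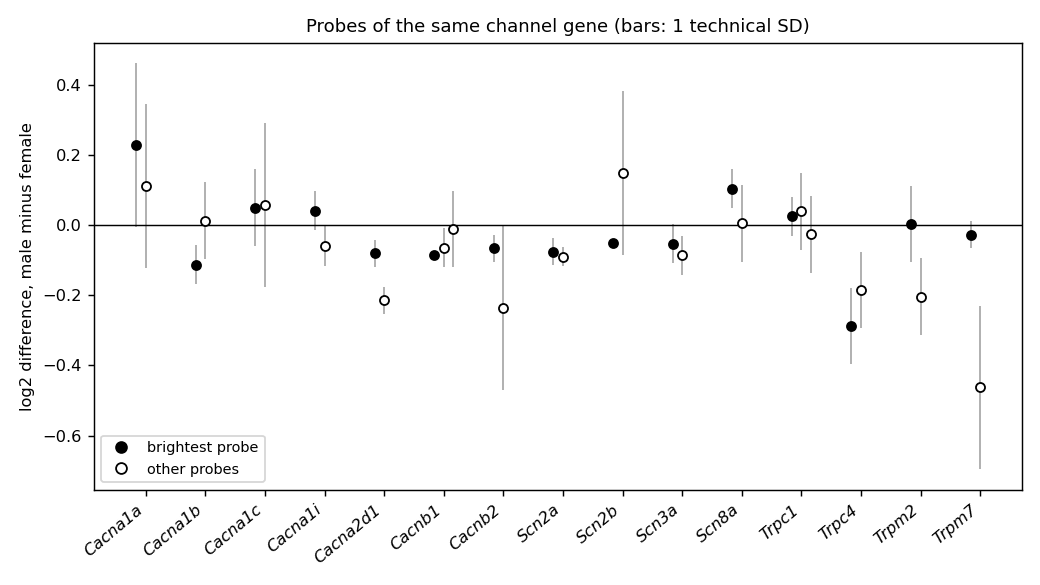
Log2 differences, male minus female, of each probe of the 15 channel genes with at least 2 probes well above background on both arrays. Filled points are the brightest probe of a gene, open points its other probes and bars 1 technical SD, and Trpm7 shows the widest gap, with -0.03 on its brightest probe and -0.46 on the other.

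The differences were also read by signal. All 10 channel genes with a mean signal above the 75th percentile (Scn2a, Scn2b, Scn3b, Cacna2d1, Cacnb1, Cacnb2, Cacnb3, Cacng2, Trpc4ap and Trpm7) were lower in the male pool, against 60.6% of 2907 named genes at such signals. Their median was -0.059, against -0.021 for those named genes. That count was 9 of 10 with quantile normalization, with the mean over probes and with local centring, and 10 with the other alternatives. Among the 15 dimmest measured channel genes, with a mean log2 signal under -4, 8 read higher in males and 7 lower (46.7%), at a median of 0.02. Of named genes at such signals, 48.0% were lower, at a median of 0.0099. At log2 signals of -2 to 0, 58.3% of channel genes were lower, against 62.1% of named genes. At -4 to -2 the shares were 58.3% and 57.7%. The grouping by signal was chosen after the values were seen.

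**Figure D4:**
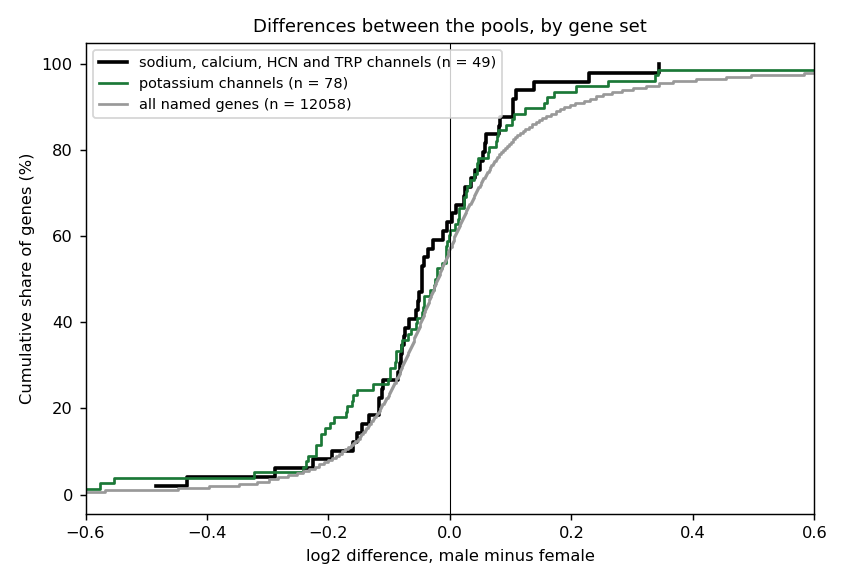
Cumulative share of genes, in percent, against the log2 difference, male minus female, for the 49 channel genes, 78 potassium channel genes and 12058 named genes well above background on both arrays. The curves run close together and cross 0 at 63.3%, 61.5% and 57.2%, and the axis is limited to -0.6 to 0.6, outside which lie some potassium channel and named genes.

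Genes that act with these channels were taken from a list of 78, of which 63 had a named probe, 51 were measured on at least 1 array and 50 on both. Over these 50, 23 read higher in males and 27 lower, at a median of -0.017. Of the 51, 1 was 2-fold apart, against 2.93% of named genes measured on either array. P2rx4, an ATP-gated cation channel gene of microglia and neurons, gave 4.06% in the male pool, against 18.7% in the female pool, at -2.20, on a single spot that lay in a patch. It has no other probe, so it had no value when such spots were removed.

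Sodium channel partners anchor the channels at the axon initial segment or set their gating. Of 10 measured, 8 were lower in males (7 with local centring), against 57.2% of named genes on both arrays. The median of these partners was -0.056. The largest differences were those of Fgf14, an intracellular FGF that binds sodium channels, at 0.19 (1.72 technical SD), and Nfasc at -0.18 (3.23 technical SD). Nfasc, the node protein neurofascin, read 0.03 on its second probe. Calcium channel partners and store channels were split, with 11 higher in males and 10 lower (10 and 11 with median centring or the mean over probes, 13 and 8 with normexp). Jph4, a junctophilin that ties the endoplasmic reticulum to the surface, read 0.58, and its spot lay in a patch. Rem2, a small GTPase that inhibits calcium channels, was at 0.50 with 2.54% in males and 1.80% in females.

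Of the 5 HCN and NALCN partners, 3 read higher in males and 2 lower, and the split turned to 2 and 3 with median centring, quantile normalization, normexp with it, and the mean over probes. Flna, the actin cross-linker filamin A, was at 0.17 (1.60 technical SD), and Pex5l, the HCN trafficking subunit TRIP8b, at 0.10 (2.72 technical SD). Among TRP relatives and other cation channels, 7 of 14 genes read higher in males and 7 lower, a split that moved to 5 higher with median centring or quantile normalization, 4 with normexp and quantile normalization and 9 with normexp and the 75th percentile. Besides P2rx4, the acid-sensing channel gene Asic3 was furthest apart, at 0.43, on a dim spot in a patch.

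Markers of the tissue and its cell types were read on the same arrays. All 15 hypothalamic marker genes were well above background in both pools, with summed signals of 10080% in males and 10420% in females. Of these, 11 were lower in males and 4 higher, at a median of -0.077, and 1, the neuropeptide gene Kiss1, was 2-fold apart at -1.22, with 1.07% in males and 2.49% in females. Rax, a tanycyte marker, was above background in neither pool. Of the 12 neuron markers, 10 were lower in males and 2 higher, at a median of -0.056 and summed signals of 3573% in males and 3773% in females. All 10 meningeal fibroblast markers read higher in males, at a median of 1.32 and summed signals of 457% in males and 179% in females. All 5 red blood cell markers (median 0.84), all 8 oligodendrocyte markers (0.09), all 6 microglial markers (0.11) and all 5 measured astrocyte and tanycyte markers (0.27) were higher as well, although 1 astrocyte marker read lower with median centring, both quantile settings or the mean over probes, 1 microglial marker with local centring and 1 oligodendrocyte marker with the mean over probes. Choroid plexus and ependymal markers (median 0.25), mural cell markers (0.18) and endothelial markers (0.18) read mostly higher in males. The pituitary markers, with 4 of the 5 on both arrays higher in males (median 0.35), differed in both directions by large amounts. Tshb, a thyrotropin subunit gene, was at 3.64, with 11.7% in males and 0.939% in females, and Cga, the common subunit of the glycoprotein hormones, was at 2.03, with 84.9% in males and 20.8% in females, on a spot in a patch. Prl, the prolactin gene, was above background in the female pool alone, with 0.150% in males and 5.43% in females, at least 7.91-fold lower in males, also on a spot in a patch. Fshb and Gh1 of the same list were above background in neither pool. The median of the channel genes, -0.047, lay between that of named genes, -0.021, and those of the neuron and hypothalamic markers, -0.056 and -0.077. The part of cell make-up in the channel gene median was not tested.

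**Figure D5:**
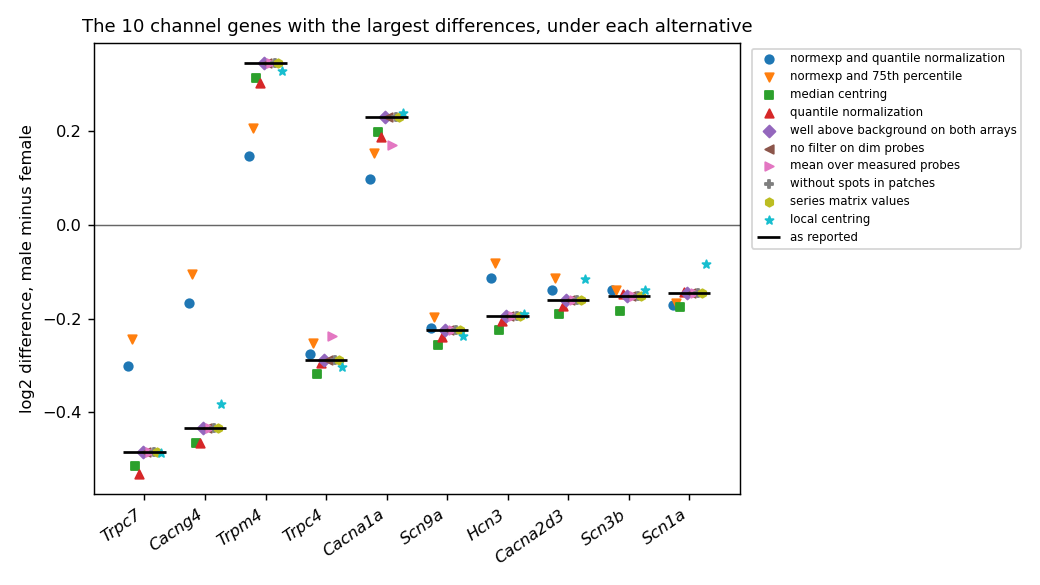
Log2 differences, male minus female, of the 10 channel genes with the largest differences, as reported (black lines) and under each of the 10 alternative processings (symbols). Each gene stays on its own side of 0, and the normexp settings bring the dim genes Trpc7, Cacng4 and Trpm4 closest to 0.

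Across 10 alternative processings of the values, 36 of the 49 channel genes kept the sign of their difference under all of them. The other 13 (Cacna1c, Cacna1e, Cacna1i, Cacna2d2, Cacnb3, Cacnb4, Hcn2, Scn2b, Trpc1, Trpc5, Trpc6, Trpm2 and Trpm3) changed sign under at least 1, and all of these lay within 0.058 of 0 as reported. No channel gene was 2-fold apart under any alternative. The largest difference under each was between 0.25, with normexp and the 75th percentile, and 0.77, when the 15 dim genes were let in without a filter.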

How the data were processed

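Hypothalamic RNA of 1 male and 1 female pool was measured on 1 Agilent 1-colour array each. Per the file headers, the deposited array files hold processed spot intensities from Feature Extraction 11.5.1.1 (the submitters' processing notes name 9.1), background-subtracted by the scanner software, with spot and background medians. The series matrix intensities, deposited by the authors, equalled the processed signal over the array's 75th percentile times 100, within 0.1%, for all 42947 values. Here log2 intensities were centred on the 75th percentile of rat spots. Outlier spots on either array (664) were left out and a probe's spots averaged. Probes were named through RefSeq accessions and the GRCr8 gene table, used for names and gene order; 45.2% of probes matched a symbol, leaving locus numbers unnamed.

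A probe counted as measured when over 50% of its spots were well above background. A dim side was raised to the array's lowest probe signal above background (15.1 and 12.9 units in the male and female arrays). The limits used were 2-fold, 1.5-fold and 1.2-fold, with no test. A spot lay in a patch where 2 or more of its 18 nearest measured neighbours from other probes were 2-fold apart in 1 direction. Alternatives were normexp (limma 3.58.1, offset 50, on spot medians, because the files hold no mean signal), median centring, quantile normalization, dim filters, the mean over probes, removal of patches, the series matrix and local centring, the last added after the data were seen. Values in full were given to channel genes at least 1.5-fold apart, the 2 furthest apart per family and a set of named genes, and the other members are given as well. The single values of a few members are not reported here, although the counts include them. The calculation was tested on simulated data with known changes, all larger than 2-fold. That test did not cover differences as small as those of the channel genes. The members and lists were chosen with earlier results of these data known.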

Additional observations from a re-analysis of the deposited data

How the results depend on the processing

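No member of the channel list was 2-fold apart under any of the 10 alternatives, and the median of the channel genes stayed between -0.077 (median centring) and -0.030 (normexp and the 75th percentile). With no filter on dim probes, 28 of 64 were higher in the male pool, against 18 of 49 as reported, since 15 dim genes were let in, and 3 partner genes were at least 2-fold apart. Without spots in patches 0 partner genes were, because P2rx4 lost its only spot. Over all genes and transcripts, 1098 were at least 2-fold apart as reported (4.20% of 26112). That count was 486 with normexp and quantile normalization, 495 with normexp and the 75th percentile, 428 when only probes above background on both arrays were used, 162 without spots in patches and 2666 with no filter. The total behind these counts differed too, with 24136 genes and transcripts above background on both arrays and 39508 with no filter. Dim probes limit the differences of genes such as Trpc7, Cacng4 and Trpm4. No paired analysis was possible because each sex had 1 array.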
